A study of Rattus norvegicus with 6 samples.

Results

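Fibrillar collagens are the collagens whose chains wind together into long helices and pack side by side into the fibrils that give connective tissue its tensile strength. In the intervertebral disc, type I fibrils dominate the outer annulus fibrosus and type II fibrils dominate the inner annulus, the nucleus pulposus and the cartilage endplate, while types III, V and XI assemble into these fibrils as minor partners that set where they start and how thick they grow. The genes for 10 fibrillar collagen chains, Col1a1, Col1a2, Col2a1, Col3a1, Col5a1, Col5a2, Col5a3, Col11a1, Col11a2 and Col27a1, were followed here in punctured rat discs. They were taken by gene name from a table of 30562 rat genes, each name matched 1 identifier, and 10 of 10 passed the filter on low counts. A further fibrillar chain, Col24a1, is given with the other genes of the pathway.

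The discs came from 12-week-old male Sprague-Dawley rats of wild-type genotype, in which a tail disc had been punctured with a needle to make it degenerate. The control group was 3 libraries, from discs that received PBS into the disc by the description in the methods and no treatment by that in the sample records. The other group was 3 libraries labelled AF-PTK@LEV@SPP1, a vesicle made by fusing liposomes with bacterial outer membrane vesicles, which displays an annulus-binding peptide on a tether that oxidants cut and carries an siRNA against Spp1, the gene for osteopontin. The injected dose was 10 μL with 1 mg/kg of siRNA, begun 24 h after surgery, and tissue was taken at 8 weeks, whereas the sample records give 14 days, mice, and macrophages sorted from digested discs.

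The counts bore on that last label. Marker genes of macrophages took 0.255% ± 0.0979 (SD, n = 2 distinct samples) of the counts in control libraries and 0.155% ± 0.0765 (SD, n = 3) in libraries labelled AF-PTK@LEV@SPP1, while the 10 fibrillar collagen genes took 10.2% ± 1.77 and 13.3% ± 1.62. Col1a1 took more counts than any other gene in each of the 6 libraries, and the identifiers are those of rat genes, so that the libraries are described here as rat disc tissue. Spp1 itself stood at 8114, 4408 and 4414 CPM (reads scaled by the TMM-adjusted total of each library) in control replicates 1, 2 and 3, and at 8047, 6893 and 8451 in replicates 1, 2 and 3 labelled AF-PTK@LEV@SPP1. A reduction of the target of the siRNA was not seen, and its direction is open (edgeR log2 fold change 0.31, 95% interval -0.62 to 1.24, adjusted p = 0.628). The log2 fold change of Spp1 was -0.07 without the control pair described below and 0.81 without control replicate 1.

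The control libraries held 17942989, 16565291 and 17489851 counts, and libraries labelled AF-PTK@LEV@SPP1 held 17074981, 15560728 and 17855184. Over 14393 genes, control replicates 2 and 3 varied only 1.33 times as much as counting noise, against 51.3 to 107 times for the other pairs within a group, so they were counted as 1 sample. Their counts were summed in the fit across genes and their values averaged elsewhere, which leaves n = 2 distinct control samples against n = 3. An exact permutation test on 3 against 2 samples cannot give a two-sided p below 0.1. Control replicate 1 and the pair differed from each other in several of the collagens, as their values show, and differences are also given with either left out. Such a fit keeps 1 distinct control sample, so that its spread between samples comes from libraries labelled AF-PTK@LEV@SPP1 alone.

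The fitted difference was above 0 for the type I and type II chains and for Col11a2, and below 0 for the type III, V and XXVII chains and for Col11a1, but it passed the test for Col5a3 alone. The 95% intervals of Col1a1, Col1a2, Col2a1, Col5a2, Col11a1 and Col11a2 include 0, so that their directions are open. Col5a3, which encodes a minor chain of type V collagen, fell in libraries labelled AF-PTK@LEV@SPP1 to 0.227 times its control level. In edgeR's quasi-likelihood test with Benjamini-Hochberg adjustment over 15537 genes, at an adjusted p under 0.05, 1 of the 10 members was called. That test called 575 genes, or 3.70% of those tested, with 2.57% lower and 1.13% higher. The 575 became 280 without control replicate 1, 113, 0 and 0 without replicates 1, 2 and 3 labelled AF-PTK@LEV@SPP1, and 3 without the control pair. In tissue of mixed cells, fewer cells of a type and less RNA per cell cannot be told apart.

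**Figure D1:**
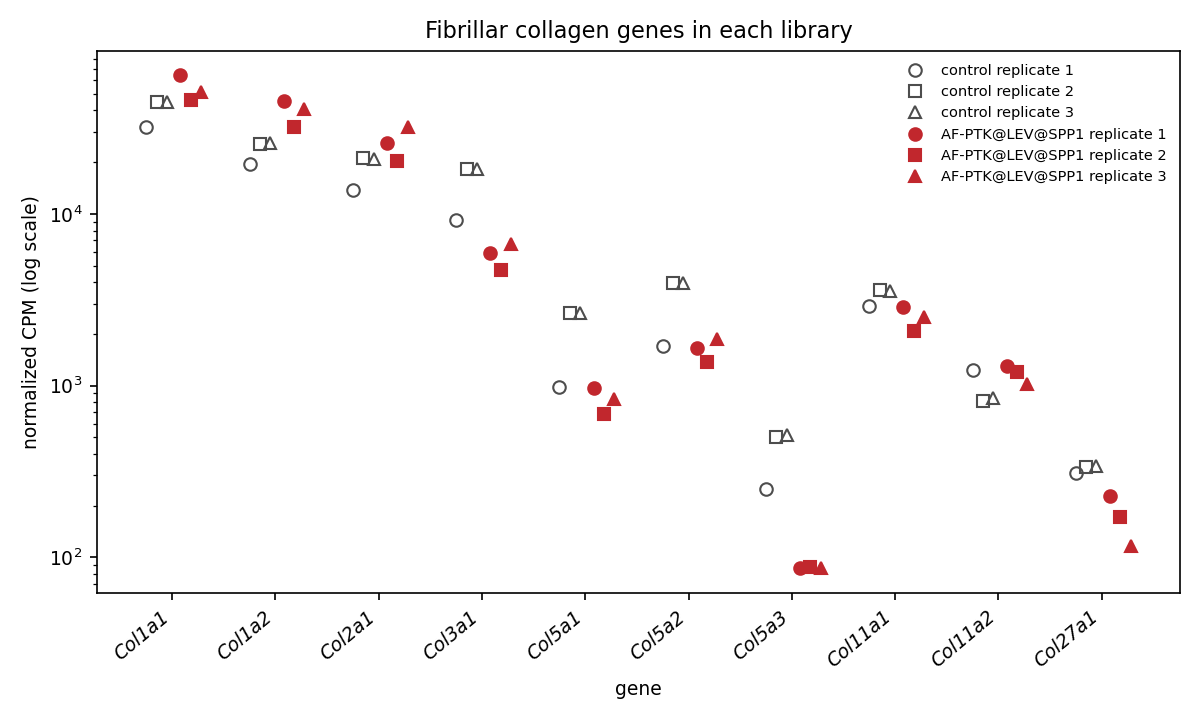
Normalized CPM (log scale) of the 10 fibrillar collagen genes in each library, with open grey symbols for control and filled red symbols for AF-PTK@LEV@SPP1, and 1 symbol shape per replicate number. The red points lie below the grey points for Col3a1, Col5a1, Col5a3, Col11a1 and Col27a1 and above them for Col1a1 and Col1a2, and Col5a3 stands at 86.6 to 87.5 CPM in libraries labelled AF-PTK@LEV@SPP1.

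Counted by overlap, 5 of the 10 members had every sample labelled AF-PTK@LEV@SPP1 below every distinct control sample, 2 had every one above, and 3 overlapped. Among all genes tested, 21.9% lay apart on the lower side and 23.9% on the higher side, so that the count on the higher side was near the background. The median log2 fold change was -0.60 over the 10 members, with 4 positive and 6 negative, and 0.05 over all genes tested. At an unadjusted p under 0.05 there were 4 members, each lower, which is 40.0% of them against 25.4% of all genes. No member was called higher by edgeR or by limma-voom, and none had an unadjusted p under 0.05 on that side, while DESeq2 called 1, Col1a2. DESeq2 called 2572 genes in all, where edgeR called 575 and limma-voom 454, so that its calls below are the less strict. With the 6 libraries kept apart, 3 of the 10 members were called, Col3a1, Col5a3 and Col27a1, where edgeR called 18.1% of all genes.

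**Figure D2:**
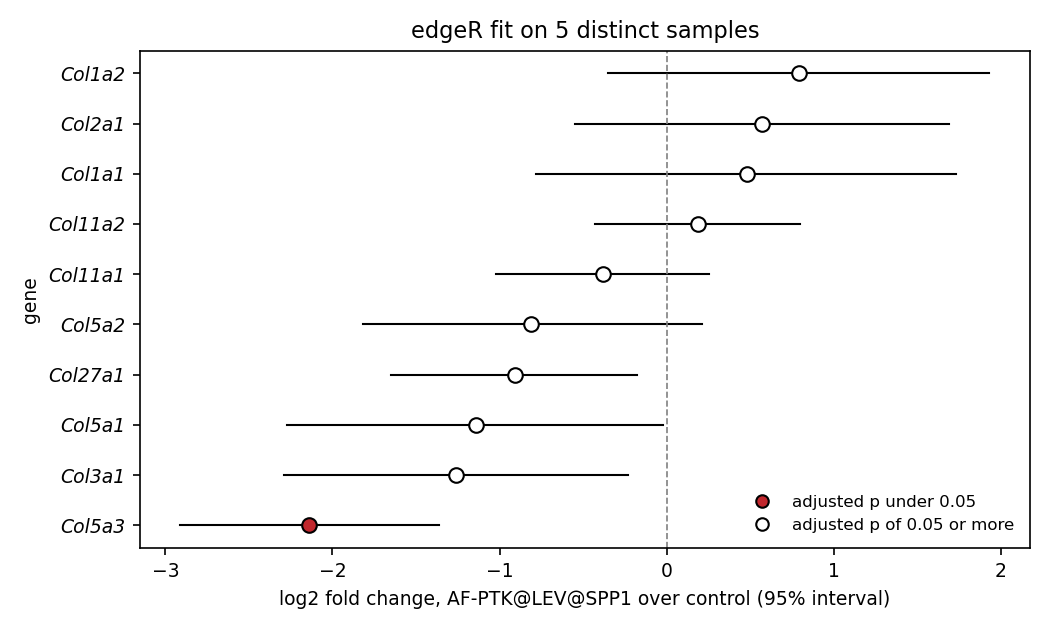
Log2 fold change of each fibrillar collagen gene, AF-PTK@LEV@SPP1 over control, with its 95% interval, from edgeR's quasi-likelihood fit on 5 distinct samples. The interval of Col5a3, the filled point, runs from -2.91 to -1.36, and the intervals of Col3a1, Col5a1 and Col27a1 also end below 0 although their adjusted p did not pass.

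Type I collagen, the main fibril of the annulus, is built from the products of Col1a1 and Col1a2. Col1a1 stood at 31887, 44697 and 45021 CPM in control replicates 1, 2 and 3, and at 64018, 45894 and 51196 CPM in libraries labelled AF-PTK@LEV@SPP1. The groups did not overlap, but replicate 2 labelled AF-PTK@LEV@SPP1 lay only just above the control pair and control replicate 1 was the lowest of the 6. For Col1a1 the log2 fold change was 0.48 (SE 0.50, edgeR adjusted p = 0.582), and its 95% interval of -0.78 to 1.73 leaves the direction open. It was 0.74 without the control pair and 0.24 without control replicate 1. Col1a2 stood at 19615, 25399 and 25894 CPM in control libraries and at 45352, 31921 and 40551 CPM in those labelled AF-PTK@LEV@SPP1. Here the lowest library labelled AF-PTK@LEV@SPP1 cleared the highest control library by a wider margin. Col1a2 differed by a log2 fold change of 0.79 (SE 0.45, edgeR adjusted p = 0.329), with a 95% interval of -0.35 to 1.93, and DESeq2 called it at an adjusted p of 0.0173. Over the 18 alternative fits the log2 fold change of Col1a2 ran from 0.60 (without control replicate 1) to 0.99 (without the control pair).

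Col2a1 encodes the only chain of type II collagen, the fibril of cartilage and of the nucleus pulposus. It stood at 13858, 21110 and 20918 CPM in control replicates 1, 2 and 3, and at 25938, 20347 and 31944 CPM in libraries labelled AF-PTK@LEV@SPP1. Replicate 2 labelled AF-PTK@LEV@SPP1 lay within the control range, between control replicate 1 and the control pair, and replicate 3 labelled AF-PTK@LEV@SPP1 was the highest. The mean was 17436 ± 5060 CPM (SD, n = 2) in control samples and 26076 ± 5800 CPM (SD, n = 3) in those labelled AF-PTK@LEV@SPP1. The log2 fold change was 0.57 (SE 0.44, edgeR adjusted p = 0.459), with a 95% interval of -0.55 to 1.69. Without the control pair it was 0.90 and without control replicate 1 it was 0.30, so that its size rests on which control is read.

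Col3a1 encodes the chain of type III collagen, which is laid down with type I in healing and compliant tissue. It stood at 9226, 18137 and 18247 CPM in control libraries, and at 5926, 4696 and 6667 CPM in libraries labelled AF-PTK@LEV@SPP1. All 3 labelled AF-PTK@LEV@SPP1 lay below control replicate 1, which itself had 0.507 times the level of the control pair. Its log2 fold change was -1.26 (SE 0.41, edgeR adjusted p = 0.144), with a 95% interval of -2.29 to -0.23. The difference was -0.69 without the control pair and -1.67 without control replicate 1. Col3a1 was called with the 6 libraries kept apart (edgeR adjusted p = 0.0412) and by DESeq2 (adjusted p = 0.00443), and over its alternative fits the adjusted p went as high as 0.438.

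Type V collagen, which starts and narrows type I fibrils, is built from the products of Col5a1, Col5a2 and, in some tissues, Col5a3. Col5a1, whose chain is needed in every type V molecule, stood at 983, 2650.3 and 2658 CPM in control libraries and at 965, 679 and 841 CPM in those labelled AF-PTK@LEV@SPP1. The highest library labelled AF-PTK@LEV@SPP1 was almost level with control replicate 1, and the distance between the groups came from the control pair. The log2 fold change of Col5a1 was -1.14 (SE 0.45, edgeR adjusted p = 0.193; 95% interval -2.27 to -0.02), and it was -0.25 without the control pair and -1.70 without control replicate 1. Col5a2 stood at 1708.5, 3965 and 3977 CPM in control libraries and at 1664, 1380.5 and 1861 CPM in those labelled AF-PTK@LEV@SPP1. Replicate 3 labelled AF-PTK@LEV@SPP1 lay above control replicate 1, so these groups overlapped. For Col5a2 the fitted difference was -0.81 (SE 0.40, edgeR adjusted p = 0.273; 95% interval -1.82 to 0.21), and it was -0.07 without the control pair and -1.30 without control replicate 1.

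Col5a3 differed from its partner chains in how far apart the groups stood. It had 251, 501 and 519 CPM in control replicates 1, 2 and 3, and 86.6, 87.5 and 86.8 CPM in libraries labelled AF-PTK@LEV@SPP1. The lowest control library lay well above each of libraries labelled AF-PTK@LEV@SPP1, and these varied by 0.513% (SD over mean), less than the 2.6% expected from counting alone. The mean was 380 ± 183 CPM (SD, n = 2) in control samples and 87.0 ± 0.446 CPM (SD, n = 3) in those labelled AF-PTK@LEV@SPP1. The log2 fold change was -2.14 (SE 0.31, 95% interval -2.91 to -1.36, edgeR adjusted p = 0.0371), lower in 3 of 3 samples. Of 18 alternative fits, Col5a3 was called in 14 and lower in 18, with log2 fold changes from -2.57 (without control replicate 1) to -1.54 (without the control pair) and adjusted p of 2.00e-08 to 0.163. The 4 fits that did not call it left out replicate 1, 2 or 3 labelled AF-PTK@LEV@SPP1, with edgeR adjusted p of 0.0792, 0.107 and 0.163, or the control pair. The 14 include the fit without control replicate 1, which has 1 distinct control sample. They also include the fits with the 6 libraries kept apart, which count the control pair as 2 samples.

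Type XI collagen does for type II fibrils what type V does for type I, and Col11a1 and Col11a2 encode chains of it. Col11a1 stood at 2927, 3588 and 3540.5 CPM in control libraries and at 2885, 2092 and 2526 CPM in those labelled AF-PTK@LEV@SPP1. Replicate 1 labelled AF-PTK@LEV@SPP1 was close below control replicate 1, and the groups did not overlap. Col11a1 had a log2 fold change of -0.38 (SE 0.25, edgeR adjusted p = 0.381), with a 95% interval of -1.02 to 0.25. Leaving out libraries gave it from -0.53 (without replicate 1 labelled AF-PTK@LEV@SPP1) to -0.24 (without the control pair). Col11a2 stood at 1228, 813 and 846 CPM in control libraries and at 1309, 1195 and 1027 CPM in those labelled AF-PTK@LEV@SPP1. For Col11a2 it was control replicate 1 that was high among the controls, at 1.48 times the pair, and it lay inside the range of libraries labelled AF-PTK@LEV@SPP1. The log2 fold change of Col11a2 was 0.19 (SE 0.24, edgeR adjusted p = 0.664), with a 95% interval of -0.43 to 0.80. Its sign was not stable, since the log2 fold change was -0.07 without the control pair and 0.49 without control replicate 1.

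Col27a1 encodes the chain of type XXVII collagen, which forms thin fibrils in the matrix of cartilage. It stood at 308, 336 and 339 CPM in control replicates 1, 2 and 3, and at 228, 171 and 117 CPM in libraries labelled AF-PTK@LEV@SPP1. The control libraries lay close together and all above the others, which spread widely among themselves. Its log2 fold change was -0.91 (SE 0.29, edgeR adjusted p = 0.14), with a 95% interval of -1.65 to -0.18. Control replicate 1 had 0.913 times the level of the pair, and the log2 fold change was -0.85 without the pair and -0.99 without control replicate 1, and it was -1.20 without replicate 1 labelled AF-PTK@LEV@SPP1 and -0.70 without replicate 3 labelled so. Col27a1 was called with the 6 libraries kept apart (edgeR adjusted p = 0.0447) and by DESeq2 (adjusted p = 0.0336), and over its alternative fits the adjusted p went as high as 0.374.

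The 10 genes together took 8.91%, 11.4% and 11.4% of all counts in control replicates 1, 2 and 3, and 14.8%, 11.6% and 13.5% in libraries labelled AF-PTK@LEV@SPP1. Exact Clopper-Pearson 95% intervals, which cover counting error only, lay within 0.02 percentage points of these shares. Each library labelled AF-PTK@LEV@SPP1 lay above each control library, although replicate 2 labelled AF-PTK@LEV@SPP1 did so by less than the spread within either group. Type I chains took 6.10% ± 0.721 (SD, n = 2) of all counts in control samples and 9.41% ± 1.34 (SD, n = 3) in those labelled AF-PTK@LEV@SPP1. The type III chain took 1.35% ± 0.498 and 0.583% ± 0.0779, and the type V chains took 0.494% ± 0.247 and 0.258% ± 0.0252. The type II chain took 1.74% ± 0.330 and 2.63% ± 0.488, and did not overlap as a share of all counts although its normalized CPM did. The type XI chains, at 0.432% ± 0.0277 and 0.373% ± 0.0393, overlapped. These shares were not tested, and the sum follows Col1a1, Col1a2 and Col2a1, whose directions are open.

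Within the counts on the 10 genes, a measure that scaling between libraries cannot move, the type I chains made up 62.8%, 57.8% and 58.1% in control replicates 1, 2 and 3, and 73.7%, 71.7% and 67.1% in libraries labelled AF-PTK@LEV@SPP1. The type III chain made up 11.25%, 14.96% and 14.96%, and 3.99%, 4.33% and 4.87%. Replicates labelled AF-PTK@LEV@SPP1 were thus alike in having a small type III share, below that of control replicate 1 as well as that of the pair. The type V chains made up 4.73% ± 1.61 (SD, n = 2) in control samples and 1.95% ± 0.107 (SD, n = 3) in those labelled AF-PTK@LEV@SPP1. The type XI chains, which overlapped as a share of all counts, made up 4.34% ± 1.03 and 2.82% ± 0.217, and the type XXVII chain 0.327% ± 0.0694 and 0.133% ± 0.0406. The type II chain made up 17.1% ± 0.271 and 19.9% ± 3.08, with replicate 1 labelled AF-PTK@LEV@SPP1 only just above the controls. Exact 95% intervals of the shares lay within 0.075 percentage points of each.

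**Figure D3:**
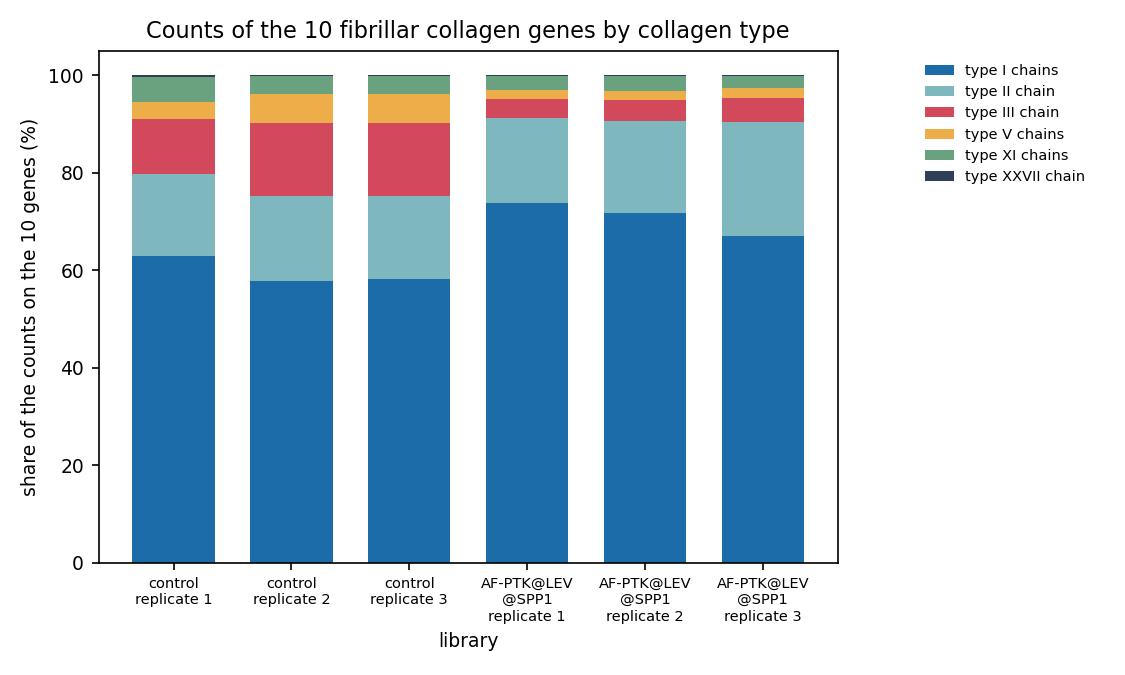
Share of the counts on the 10 fibrillar collagen genes (%) that fell on the chains of each collagen type, as stacked bars that add up to the whole in each library. The type III segment is 11.25% to 14.96% in control libraries and 3.99% to 4.87% in those labelled AF-PTK@LEV@SPP1.

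Ratios between chains, taken in each library, asked whether partners of a fibril kept their proportion. Because the length of a gene is the same in every library, a ratio of counts can be compared between libraries but does not give the proportion of the chains. Of 9 ratios, 6 were lower without overlap in libraries labelled AF-PTK@LEV@SPP1, 0 were higher and 3 overlapped. The ratios share genes, with Col1a1 in 4 of them and Col2a1 and Col5a1 in 3 each, so they are not separate observations, and ratios of other genes were not counted beside them. Each of the 6 had a two-sided exact permutation p of 0.1, the smallest that these samples allow, and 0.15 after Benjamini-Hochberg adjustment over the 9.

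Col3a1 over Col1a1, the type III chain against a type I chain, was 0.289, 0.406 and 0.405 in control libraries and 0.0926, 0.102 and 0.13 in those labelled AF-PTK@LEV@SPP1. The log2 ratio differed by -1.68, by -1.43 without the control pair and by -1.92 without control replicate 1. Col5a1 over Col1a1 was 0.0308, 0.0593 and 0.059 in control libraries and 0.0151, 0.0148 and 0.0164 in those labelled AF-PTK@LEV@SPP1. That ratio was close to uniform among libraries labelled AF-PTK@LEV@SPP1, and its log2 difference was -1.47, or -0.999 without the control pair and -1.94 without control replicate 1. Among the cartilage chains, Col11a1 over Col2a1 differed by -0.97 and Col27a1 over Col2a1 by -1.54 on the log2 scale. Replicate 3 labelled AF-PTK@LEV@SPP1, at 0.00367, was far below replicates 1 and 2, at 0.00879 and 0.00843, in the ratio of Col27a1 to Col2a1, and without it the log2 difference was -1.13.

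Among chains of the same type, Col1a1 over Col1a2 was 1.63, 1.76 and 1.74 in control libraries and 1.41, 1.44 and 1.26 in those labelled AF-PTK@LEV@SPP1, a log2 difference of -0.30 without overlap. Col5a1 over Col5a2 differed by -0.29 and Col11a1 over Col11a2 by -0.60 on the log2 scale, and both overlapped between the groups. The exact permutation p was 0.3 for the former and 0.2 for the latter. Without the control pair they were -0.19 and -0.17, and without control replicate 1 they were -0.40 and -1.02. Col5a3 over Col5a1 was 0.255, 0.189 and 0.195 in control libraries and 0.0898, 0.129 and 0.103 in those labelled AF-PTK@LEV@SPP1, a log2 difference of -1.06. Each library labelled AF-PTK@LEV@SPP1 thus had less Col5a3 for its Col5a1 than any control library. Col2a1 over Col1a1 differed by 0.10 on the log2 scale with overlap, and the difference was -0.09 without replicate 3 labelled AF-PTK@LEV@SPP1 and 0.22 without replicate 1 labelled so.

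**Figure D4:**
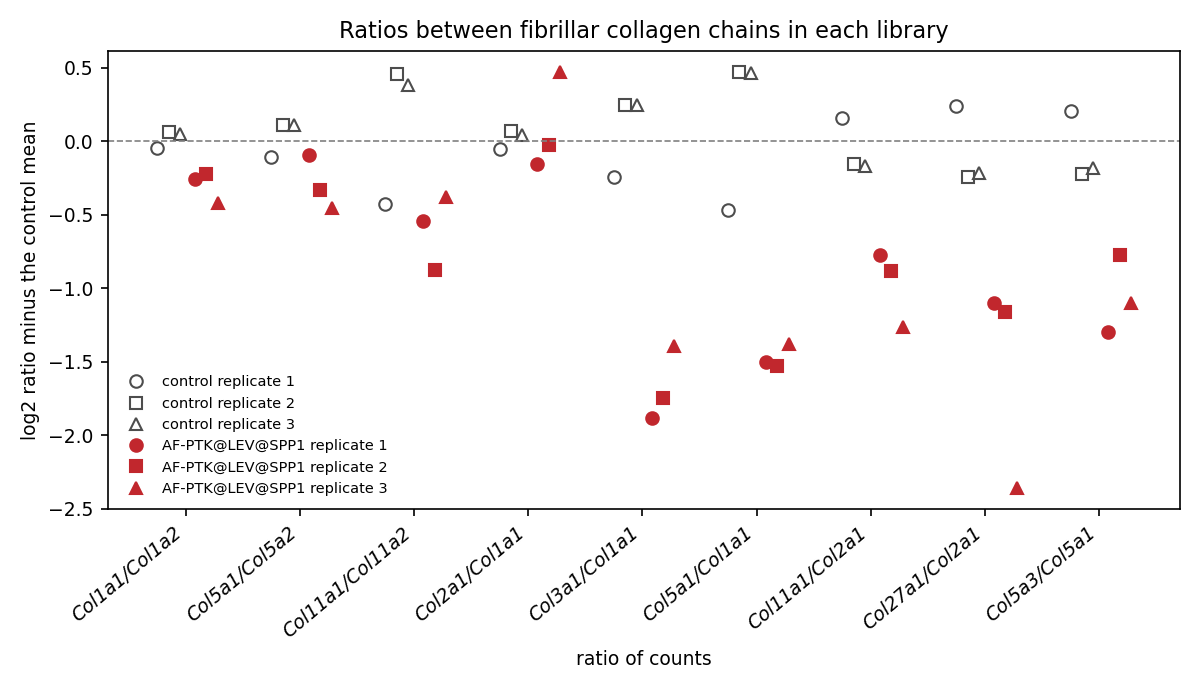
Log2 ratio of the counts of pairs of fibrillar collagen genes in each library, set against the mean of the distinct control samples, with symbols as in the plot of CPM. The points labelled AF-PTK@LEV@SPP1 lie below every control point for Col1a1/Col1a2, Col3a1/Col1a1, Col5a1/Col1a1, Col11a1/Col2a1, Col27a1/Col2a1 and Col5a3/Col5a1.

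Likeness of pattern was read as the root mean square difference of log2 CPM over the 5 distinct samples, after each gene was centred on its own mean. Among the members the closest pair was Col1a1 and Col1a2, at 0.164, followed by Col1a2 and Col2a1 at 0.192. Next came Col5a1 and Col5a2 at 0.197, and Col3a1 and Col5a1 at 0.21. The closest members thus formed a group of Col1a1, Col1a2 and Col2a1 and a group of Col3a1, Col5a1 and Col5a2, without the type V chain gene Col5a3. Col5a3 was 0.449 from Col3a1, 0.559 from Col5a1 and 0.68 from Col5a2. Outside the members, among 5178 genes, those closest to Col1a1 were Sun1 at 0.055, Tom1l2 at 0.057 and Ddr2 at 0.057. Those closest to Col2a1 were Papss1 at 0.057, Vsir at 0.087 and Ecm1 at 0.087.

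The 10 genes lie on 9 chromosomes. Col3a1 (ENSRNOG00000003357, forward strand, 47374593 to 47410547) and Col5a2 (ENSRNOG00000003736, reverse strand, 47448736 to 47598154) share chromosome 9, where 38188 bases and 0 annotated genes lie between them. Coordinates are those of the deposited table, whose genome build is not given, since the processing notes of the sample records name mm10, a mouse build, and the identifiers are those of rat. Col5a3 (ENSRNOG00000020525) lies on chromosome 8 from 19304571 to 19349853, on the reverse strand. Of the 10 members, Col5a1, Col5a2 and Col27a1 overlap another annotated gene each, and none of these had more than 1 count in a library.

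Promoter sequences, from 250 bases before to 50 after the annotated start of the gene, were read from RefSeq on the rat build GRCr8 for 7 of the 10 members. Whether an annotated start is the start of transcription was not tested, so distances of motifs are from the annotated start only. They are those of Col1a2, Col5a1, Col5a2, Col5a3, Col11a1, Col11a2 and Col27a1, and the other members are Col1a1, Col2a1 and Col3a1. Motifs searched on both strands were CCAAT, which reads ATTGG on the other strand, GGGCGG, which reads CCGCCC, and TATAAA, which reads TTTATA, and 0 matches of different motifs overlapped. CCAAT was present in 3 of the 7 promoters and in 37.5% of 33469 promoters of that length, GGGCGG in 5 of 7 and in 33.1%, and TATAAA in 1 of 7 and in 14.2%. Col11a1 held CCAAT at 2 places and GGGCGG at 3, and Col27a1 and Col11a2 held GGGCGG but not CCAAT. The type V chains are shown because Col5a3 alone was called while Col5a1 and Col5a2 followed each other, and Col1a2 because it lay on the other side of 0. Capitals mark the matches, and a match is a description of letters and not evidence of binding.

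The promoter of Col5a3 (chr8:27625899-27626198, reverse strand, GRCr8) holds CCAAT from 182 bases upstream of the start and GGGCGG from 124, 100 and 63 bases upstream. That of Col5a1 (chr3:31606630-31606929, forward strand) holds GGGCGG from 127 bases upstream, and that of Col5a2 (chr9:55090102-55090401, reverse strand) holds none of the 3 motifs. That of Col1a2 (chr4:33518307-33518606, forward strand) holds CCAAT from 221 bases and TATAAA from 170 bases upstream. Bases G and C made up 69.0% of the Col5a3 window, 72.0% of that of Col5a1, 47.7% of that of Col5a2 and 57.0% of that of Col1a2.
Col5a3: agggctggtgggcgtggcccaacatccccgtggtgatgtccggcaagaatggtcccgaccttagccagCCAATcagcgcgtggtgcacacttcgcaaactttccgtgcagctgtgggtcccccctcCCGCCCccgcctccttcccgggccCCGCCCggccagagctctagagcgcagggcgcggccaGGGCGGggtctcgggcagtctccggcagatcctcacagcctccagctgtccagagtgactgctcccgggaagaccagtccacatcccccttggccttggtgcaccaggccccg
Col5a1: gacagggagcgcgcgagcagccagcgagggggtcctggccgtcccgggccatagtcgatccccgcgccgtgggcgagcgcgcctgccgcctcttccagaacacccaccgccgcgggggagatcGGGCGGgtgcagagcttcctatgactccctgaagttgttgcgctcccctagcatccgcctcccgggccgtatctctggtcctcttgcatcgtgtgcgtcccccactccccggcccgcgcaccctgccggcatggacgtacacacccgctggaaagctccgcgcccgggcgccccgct
Col5a2: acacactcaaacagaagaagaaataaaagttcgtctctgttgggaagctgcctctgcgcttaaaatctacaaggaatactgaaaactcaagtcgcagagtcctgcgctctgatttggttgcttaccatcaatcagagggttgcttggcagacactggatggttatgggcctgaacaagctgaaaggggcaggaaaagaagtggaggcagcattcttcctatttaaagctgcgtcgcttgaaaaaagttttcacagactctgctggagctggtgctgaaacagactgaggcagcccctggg
Col1a2: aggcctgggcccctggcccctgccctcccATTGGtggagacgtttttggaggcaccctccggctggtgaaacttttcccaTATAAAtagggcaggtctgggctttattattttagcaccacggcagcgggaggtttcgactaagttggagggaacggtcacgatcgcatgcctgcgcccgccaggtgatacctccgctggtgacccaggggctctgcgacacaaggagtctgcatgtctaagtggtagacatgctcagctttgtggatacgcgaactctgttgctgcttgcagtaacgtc

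The other genes of the pathway, from the hydroxylases that modify new chains to the proteases that cut finished fibrils, were read as 9 lists of 93 genes, of which 88 were tested. Of these, edgeR called 12, with 3 higher and 9 lower in libraries labelled AF-PTK@LEV@SPP1, and their median log2 fold change was -0.28. Over all genes tested, edgeR called 3.70%, 2.57% lower and 1.13% higher, and 25.4% had an unadjusted p under 0.05, a share to set beside each list. Leaving out replicate 1, 2 or 3 labelled AF-PTK@LEV@SPP1, or the control pair, brought the 12 to 0, and leaving out control replicate 1 brought them to 7. Of 7 genes for the breakdown and uptake of collagen 5 were called lower, the most of any list. The uptake receptor gene Mrc2 lay higher without overlap (log2 fold change 0.33, edgeR adjusted p = 0.264). The collagenase gene Mmp8 overlapped, at 77.5, 9.90 and 8.30 CPM in control libraries and 26.0, 236 and 249 in those labelled AF-PTK@LEV@SPP1 (log2 fold change 1.98, edgeR adjusted p = 0.379). Osteoclasts also express Ctsk and Mmp9, and 3 of 6 other osteoclast markers, whose median log2 fold change was -2.31, were called lower as well. Ctsk, a lysosomal protease of osteoclasts, fell by 2.93 on the log2 scale (edgeR adjusted p = 0.0306), and the collagenase gene Mmp13, with the highest average log2 CPM of the list, by 2.92 (adjusted p = 0.0196). Mmp14, a membrane-bound collagenase, fell by 2.50 (edgeR adjusted p = 0.0260) and Mmp2 by 2.39 (adjusted p = 0.0444), and the fifth gene, Mmp9, named after its values were seen, fell by 1.66. Mmp2 was -1.69 without the control pair and -2.86 without control replicate 1. The summed CPM of this list was 13392, 12122 and 12103 in control libraries and 2351, 2539 and 2185 in those labelled AF-PTK@LEV@SPP1. Among molecules that bind to the surface of collagen fibrils, 2 of 17 genes were called lower and 0 higher, with 6 at an unadjusted p under 0.05. Lum fell by 3.40 (edgeR adjusted p = 0.0303) and Aspn by 2.58 (adjusted p = 0.0419). Sparc, with the highest average log2 CPM, differed by 0.59 (adjusted p = 0.435). Of the 17, 12 had a negative log2 fold change and 5 a positive one (median -0.81). Without overlap, 8 lay lower, as 21.9% of all genes did, and 1 higher, as 23.9% did. Col12a1, at -2.55, was not called (edgeR adjusted p = 0.0728). By limma-voom, Mmp2 (adjusted p = 0.0518) and Aspn (adjusted p = 0.0543) were not called. Without the control pair Lum was -2.63 and Aspn -1.95, and without control replicate 1 they were -3.90 and -3.03.

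Among collagen receptors, 1 of 8 genes was called higher and 1 lower, with 5 at an unadjusted p under 0.05. Of the 8, 5 had a positive log2 fold change and 3 a negative one. Without overlap, 4 lay higher, as 23.9% of all genes did, and 2 lower, as 21.9% did. Itga10, an integrin chain of chondrocytes that binds type II collagen, had a log2 fold change of 1.01 (edgeR adjusted p = 0.0231), Itga11, a fibroblast integrin chain for type I collagen, had -2.26 (adjusted p = 0.0381; -1.65 without the control pair and -2.69 without control replicate 1), and Itgb1, with the highest average log2 CPM, had -0.51 (adjusted p = 0.290). Of 15 regulators of collagen genes, 1 was called higher and 1 lower, with 6 at an unadjusted p under 0.05. Sox6, a partner of Sox9 at the Col2a1 gene, rose with a log2 fold change of 1.57 (edgeR adjusted p = 0.0341). Tgfbr1, a receptor for TGF-β, fell by 1.02 (edgeR adjusted p = 0.0341), and Ccn2, with the highest average log2 CPM, had -0.03. Of 11 genes for export of procollagen, 1 was called higher and 0 lower, with 3 at an unadjusted p under 0.05. Klhl12 rose with a log2 fold change of 0.82 (edgeR adjusted p = 0.0397) and Creb3l2, with the highest average log2 CPM, had 0.57 (adjusted p = 0.329). None of 18 genes for hydroxylation, glycosylation and folding was called by edgeR, with 5 at an unadjusted p under 0.05, 3 called by DESeq2 and 0 by limma-voom, and P4hb, with the highest average log2 CPM, had a log2 fold change of -0.50. Nor were any of 6 genes for propeptide removal (2 at an unadjusted p under 0.05, 1 by DESeq2, 0 by limma-voom), where Pcolce had -0.03, or of 5 for crosslinking (1 at an unadjusted p under 0.05, 0 by DESeq2 and by limma-voom), where Loxl2 had -0.07. Col24a1 had a log2 fold change of -0.81 (edgeR adjusted p = 0.107), and DESeq2 called it.

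Marker genes of 14 cell types were read beside the collagens, because the cells of a disc differ in the collagens they make. Of 6 osteoclast markers 3 were called lower, as Col5a3 was, with summed CPM of 1307, 703 and 726 in control libraries and 249, 271 and 200 in those labelled AF-PTK@LEV@SPP1, Acp5 the highest and none at 0. Of 10 macrophage markers, Cd68, named after its values were seen, was called lower. The list summed to 2988, 1995 and 1971 CPM in control libraries and 671, 1933 and 1947 in those labelled AF-PTK@LEV@SPP1, with none at 0. Lyz2 makes up much of that sum, with 1831, 1266 and 1246 CPM against 271, 1241 and 1400. Of the 10 markers 9 had a negative log2 fold change (median -0.82), and Cd163 had 1.15. Without overlap, 4 lay lower, as 21.9% of all genes did, and 0 higher. Of 7 annulus and tendon markers, Angptl7, named after its values were seen, was called higher, and the list, with Fmod the highest and none at 0, summed to 2354, 4498 and 4526 CPM and to 6235, 4840 and 6297. Angptl7, which is in that sum, had 163, 270 and 275 CPM and 1352, 1644 and 1449. Of the 7 markers 5 had a positive log2 fold change (median 0.49), and 2 lay higher without overlap, Angptl7 and Mkx (1.25). Among all genes 23.9% lay higher without overlap. Fmod (0.49), Tnmd (0.56) and Kera (0.46) overlapped, as did Scx (-0.41) and Thbs4 (-0.55). In the other 11 lists, edgeR called 0 of 66 genes, with 17 at an unadjusted p under 0.05, 16 called by DESeq2 and 0 by limma-voom, where 25.4% of all genes had such a p.

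Notochordal markers summed to 1682, 537 and 528 CPM in control libraries and to 7145, 3969 and 3495 in those labelled AF-PTK@LEV@SPP1. Car3 was the highest on average and Shh was at 0 in a control library. Of the 7 notochordal markers tested, 5 lay higher without overlap, as 23.9% of all genes did. Adipocyte markers did so for 6 of 6, with summed CPM of 493, 89.4 and 92.0, and 1073, 1723 and 795, Fabp4 the highest and none at 0. Of 3 keratinocyte markers tested 3 did so too, with summed CPM of 32.1, 11.8 and 13.7, and 212, 72.5 and 72.1, a sum that is mostly Dsp, a gene of other epithelia too, with Krt1 and Krt10 low and Krt5 at 0 in a library of each group. Chondrocyte markers, led by Acan, summed to 4610, 6052 and 6083 CPM and to 9033, 4512 and 7188, and overlapped, with Matn1 at 0 in a control library. Acan makes up much of that sum, and of the 9 genes 5 had a negative log2 fold change (median -0.29), 3 lay lower without overlap and 0 higher. Osteoblast and osteocyte markers, led on average by Ibsp, were highest in control replicate 1, at 4779 CPM against 1819 and 1812 in the control pair and 2284, 3251 and 1895 in libraries labelled AF-PTK@LEV@SPP1. Neutrophil, skeletal muscle and erythroid markers, led on average by S100a9, Acta1 and Slc4a1, overlapped between the groups and were highest in replicates 2 or 3 labelled AF-PTK@LEV@SPP1. The remaining lists were led on average by Col10a1 (hypertrophic chondrocytes), Pdgfra (fibroblasts) and Pecam1 (endothelium). Of 6 fibroblast markers 5 had a positive log2 fold change (median 0.96), 3 lay higher without overlap and 1 lower, with Pdgfra lower at 263, 354 and 363 CPM against 180, 171 and 175, and Pi16 higher at 38.9, 9.32 and 9.09 against 204, 120 and 264. Fibroblast markers summed to 633, 643 and 652 CPM in control libraries and to 796, 617 and 922, and endothelial markers to 436, 535 and 517, and 324, 388 and 391. Of 5 endothelial markers, Pecam1 and Cdh5 lay lower without overlap, as 21.9% of all genes did, and Kdr, Tek and Egfl7 overlapped, with log2 fold changes of 0.03, -0.02 and -0.21. The part of any of these cells in the levels of the fibrillar collagens was not tested.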

How the data were processed

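Bulk RNA was measured in 6 rat disc libraries, 3 per group. The authors deposited counts, whole numbers of reads for each Ensembl gene in each library, without normalization. The submitters' processing notes name FastQC, Trimmomatic, HISAT2, featureCounts, DESeq2 and the build mm10, with no versions, and the treatment of strand and of reads shared by genes is not given in the sources used here.

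The fit across genes used edgeR 4.0.16 under R 4.3.3 (TMM normalization, filterByExpr with a minimum count of 10, quasi-likelihood test, Benjamini-Hochberg adjustment over 15537 genes), after checks on simulated data, where more of the calls of DESeq2 than of edgeR were false, limma-voom did slightly better than edgeR, and the false share of each was above the level aimed at. The common biological coefficient of variation was 0.302. Control replicates 2 and 3 were summed in the fit. Exact permutation tests (scipy 1.17.1) were two-sided, on log2 ratios over distinct samples, with p as the share of regroupings whose absolute difference in means is at least that observed. The log2 CPM used a pseudocount of 0.5. Levels were not compared between the members, because the deposited table holds no gene lengths, and ratios were taken without the lengths that had been planned for.

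The members and lists were chosen with earlier results of these data known. Genes named are the members, Spp1, the called genes of each pathway list (at most 4 per direction, mean log2 CPM of at least 3), the gene of each list with the highest log2 CPM averaged over the samples (a rank of reads, not of transcripts, which can differ between groups), and the 3 genes most like Col1a1 and Col2a1 (mean log2 CPM of at least 5). Other genes of the lists (such as Mrc2, Mmp8, Pi16, Cdh5, Scx and Thbs4) were named after their values were seen. Alternatives were DESeq2 1.42.0, limma-voom 3.58.1, other normalizations and filters, a robust fit, a fold threshold, the 6 libraries kept apart, the replicate number as a block, and each library left out. Histology, imaging and single-cell data were not analysed here.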

Additional observations from a re-analysis of the deposited data

How the results depend on the processing

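Of 180 log2 fold changes of the members over the alternative fits, 179 kept their sign and 170 their side of the threshold as well. Leaving out libraries gave Col11a2 -0.0697 (without the control pair) to 0.487 (without control replicate 1), Spp1 -0.0657 to 0.806 in the same order, and the log2 difference of Col2a1 over Col1a1 -0.0903 (without replicate 3 labelled AF-PTK@LEV@SPP1) to 0.221 (without replicate 1 labelled so). The other 71 of 72 ratio differences kept their sign, and the share of counts on the members kept its direction in 8 of 8 alternatives, with a difference of 1.87 to 4.37 percentage points.

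With the 6 libraries kept apart, edgeR called 3 members, 25 pathway genes and 2727 genes in all. DESeq2 called 4 members, 27 pathway genes and 2572 genes in all. Leaving out libraries gave 0 to 1 members, 0 to 12 pathway genes and 0 to 566 genes in all, with 280 without control replicate 1, 113, 0 and 0 without replicates 1, 2 and 3 labelled AF-PTK@LEV@SPP1, and 3 without the control pair. Fewer samples were fitted there, and the cause was not otherwise tested.

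With the replicate block on the 6 libraries, edgeR called 1 member, 12 pathway genes and 741 genes in all. Aspn (adjusted p = 0.0575) and Mmp2 (adjusted p = 0.0595) were not called there, nor was Klhl12 with library size alone (adjusted p = 0.0620). Libraries with the same number did not deviate together, with correlations of -0.331, -0.294 and -0.082 between their deviations from the group means, so the numbers were not taken as pairs. Changing the normalization, the filter, the fold threshold or the robust fit left 1 member called.

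The fewest counts of a member in a library were 1452. The distinct samples were 2 and 3. Division by gene length was not run, because the deposited table holds no gene lengths. It would cancel where the same gene or ratio is compared between libraries, but not between members.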
